A study of Mus musculus with 40 samples.

Results

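The 10 genes described here are used as markers of macrophages: Csf1r, Cd68, Itgam, Cx3cr1, Cd14, Mrc1, Lyz2, C1qa, C1qb and C1qc. They were taken by symbol from the 36155 genes that the array annotation names with a single symbol. Each of the 10 was represented by 1 transcript cluster, which is the set of probes that reads the transcripts of one gene locus. Macrophages are phagocytes that arise from embryonic precursors and from blood monocytes. They engulf dying cells and microbes, digest them in lysosomes and tag them with complement. In the small intestine they lie beneath the epithelium in the lamina propria and in the muscle layer, and monocytes from the blood keep replacing many of them.

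RNA came from the jejunum, the middle segment of the small intestine, of 40 female mice aged 10 to 12 weeks, with 1 array per animal. KO mice lacked both copies of Sftpd, the gene of surfactant protein D, a secreted collectin of innate immunity, and had been backcrossed for more than 10 generations to C57BL/6N. WT mice were their Sftpd+/+ littermates. At day 0 each mouse received a single intraperitoneal dose of doxorubicin, 20 mg/kg, or the same volume of isotonic saline. Doxorubicin is an anthracycline that damages DNA and injures the proliferating crypts of the intestine. Jejunum was taken at day 3 or at day 7. The arrays cover 8 groups of 5 mice: WT-NaCl3, WT-Dox3, KO-NaCl3 and KO-Dox3, and WT-NaCl7, WT-Dox7, KO-NaCl7 and KO-Dox7. The study itself held more mice in every group except the WT saline groups. How the 5 were chosen is not given in the sources used here. Some doxorubicin mice of both genotypes were ended before their planned day because they had lost too much weight. Only healthy mice were used.

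All levels below are deposited log2 signals of the Affymetrix Mouse Transcriptome Array 1.0, where a step of 1 stands for a 2-fold signal. The median signal of an array lay between 4.49 and 4.74, and arrays of the same group correlated at 0.9748 to 0.9946. The 7 enterocyte genes looked up as a check of the tissue had a mean signal between 17.52 and 18.50 in every mouse. Sftpd read 4.12 ± 0.13 in KO mice and 4.07 ± 0.11 in WT mice (SD, n = 20 each), a difference of 0.05 with a limma adjusted p of 0.489. Both levels lay in the range of the background probe sets, whose mean was 3.45 and whose highest value was 6.99, so the array does not check the genotype labels. Of the 10 markers, 7 exceeded the brightest background probe set of their array in 40 of 40 mice, whereas C1qc did so in 39, Cx3cr1 in 33 and Cd14 in 32.

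A few mice stood apart for the whole marker set. KO-Dox7 mouse 136 had the lowest signal of its group for 10 of the 10 markers, on average 1.09 log2 units below the group mean. WT-Dox3 mouse 244 had the highest signal of its group for 9 of 10, on average 0.80 above the mean. In the same mouse 244 the 10 neutrophil genes lay 1.53 above their group mean, the 5 B cell genes 1.88 above it and the 3 pan-leukocyte genes 1.39 above it. KO-NaCl3 mouse 254, WT-Dox7 mouse 102, WT-NaCl3 mouse 190 and KO-Dox3 mouse 196 were each lowest of their group for 9 of 10 markers, with mean deviations of -0.76, -0.69, -0.46 and -0.41. Other lists deviated in them too: KO-Dox7 mouse 136 lay at -1.13 from its group mean in the 4 fibroblast genes and at -1.79 in the 3 Paneth cell genes, KO-NaCl3 mouse 254 at -1.30 and -4.04, and WT-Dox7 mouse 102 at 1.32 in the 4 smooth muscle genes. The array medians of mice 136, 102, 190 and 196 were 4.68, 4.74, 4.68 and 4.59, the highest of their groups. The part of these differences between samples in the marker signals was not tested.

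**Figure D1:**
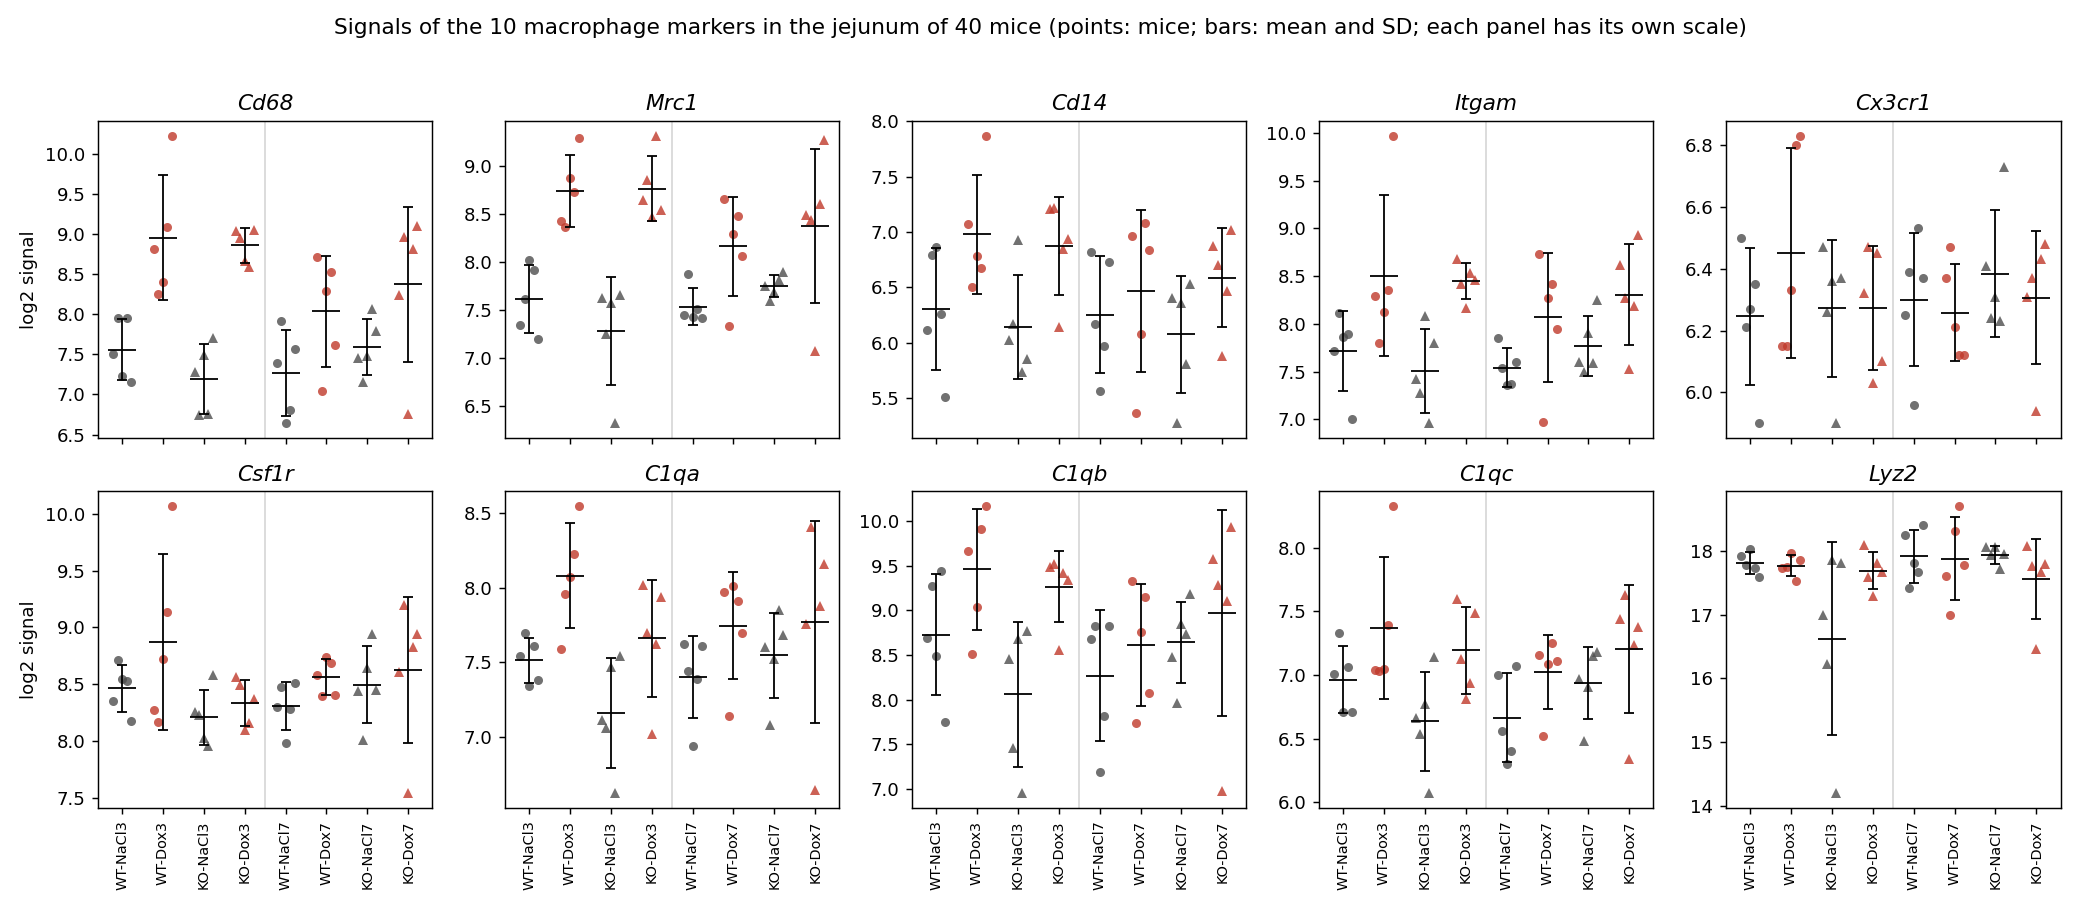
Log2 signal (vertical axis, with its own scale in each panel) of the 10 markers in the 8 groups of 5 mice (horizontal axis); circles are WT and triangles KO mice, grey is saline and red doxorubicin, and bars give the mean and SD. At day 3 the red and grey points of Cd68 and Mrc1 do not overlap within either genotype, and the lowest Lyz2 point is KO-NaCl3 mouse 254 at 14.20.

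At day 3, 7 of the 10 markers were higher after doxorubicin than after saline when both genotypes were averaged, namely Cd68, Mrc1, Itgam, C1qb, Cd14, C1qa and C1qc, and 0 were lower. In that comparison 7.39% of all 65956 clusters tested were called higher and 5.83% lower (limma, Benjamini-Hochberg adjusted p under 0.05). The median change of the 10 markers was 0.62 log2 units, against -0.02 over all clusters. Within the genotypes 2 of 10 rose in WT mice, where 2.6% of all clusters were called higher, and 3 of 10 rose in KO mice, where 5.66% were. The median change was 0.62 in WT mice and 0.84 in KO mice. Without WT-Dox3 mouse 244, 0 of 10 rose in WT mice and 3 of 10 over both genotypes. With KO-Dox7 mouse 136 left out as well, 2 rose in WT mice and 5 over both. This pair was chosen after the values were seen, as the mice whose markers lay farthest from their group means. Mouse 136 is in no day 3 group, so leaving it out changed only the shared estimate of the spread and the adjustment. Leaving out KO-Dox3 mouse 2 or KO-NaCl3 mouse 254 alone also left 3 over both. In whole tissue, more macrophages, more marker RNA per macrophage, marker RNA from other cells and a shifted mix of cells cannot be told apart.

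Cd68 and Mrc1 carried the largest changes of the 10 at day 3. Cd68 encodes macrosialin, a heavily glycosylated protein of the lysosomal membrane of phagocytes, and its cluster lies on the minus strand of chromosome 11 from 69664213 to 69666153. In WT-NaCl3 mice Cd68 read 7.51, 7.95, 7.23, 7.95 and 7.15, and in WT-Dox3 mice it read 8.81, 8.25, 8.41, 9.09 and 10.23. In KO-NaCl3 mice Cd68 read 7.28, 6.74, 7.49, 6.76 and 7.71, and in KO-Dox3 mice 9.04, 8.95, 8.67, 8.59 and 9.05. Every doxorubicin mouse lay above every saline mouse within each genotype. The change in Cd68 was 1.40 ± 0.36 (SE) in WT mice, a 2.64-fold rise (limma adjusted p = 0.0150), and 1.66 ± 0.36 in KO mice, a 3.17-fold rise (adjusted p = 0.00136). Averaged over both genotypes, Cd68 rose 2.89-fold (log2 change 1.53, 95% confidence interval 1.02 to 2.05, adjusted p = 2.56e-05). Without WT-Dox3 mouse 244 the WT change was 1.08 and its adjusted p 0.0852. The WT call of Cd68 was also lost when only the compared groups were fitted (adjusted p = 0.0726) and in an analysis of variance without moderation (adjusted p = 0.192).

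Mrc1 encodes CD206, the mannose receptor, an endocytic lectin of tissue macrophages, on the plus strand of chromosome 2 from 14229414 to 14332057. In WT-NaCl3 mice Mrc1 read 7.34, 7.61, 8.02, 7.91 and 7.20, and in WT-Dox3 mice 8.42, 8.36, 8.87, 8.72 and 9.29. In KO-NaCl3 mice it read 7.62, 7.25, 7.57, 6.32 and 7.65, and in KO-Dox3 mice 8.64, 8.85, 8.46, 9.31 and 8.54. As for Cd68, the treated and saline mice did not overlap in either genotype. Mrc1 rose 2.17-fold in WT mice (log2 change 1.12 ± 0.28, adjusted p = 0.0114), 2.79-fold in KO mice (1.48 ± 0.28, adjusted p = 0.000243) and 2.46-fold over both (1.30, 95% confidence interval 0.90 to 1.69, adjusted p = 5.57e-06). Without WT-Dox3 mouse 244 the WT change in Mrc1 was 0.98 with an adjusted p of 0.0517, and in the analysis of variance its adjusted p was 0.0985. Complete separation upwards, as for Cd68 and Mrc1, was seen in 2.15% of all clusters in WT mice and in 4.9% in KO mice, where Itgam was the only further marker with it.

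The bases upstream of Cd68, Mrc1 and Itgam are shown because these are the markers whose day 3 groups did not overlap in at least 1 genotype. Macrophage genes are commonly controlled by the ETS factor PU.1, which binds a purine-rich core, and inflammatory stimuli act in part through AP-1. Each line holds the 250 bases before the RefSeq start on GRCm38.p6, 5′ to 3′ on the gene's strand. Capitals mark GAGGAA or its reverse complement TTCCTC, the PU.1 core, and TGANTCA, the AP-1 motif, which reads the same on both strands.
Cd68 (chr11:69666171-69666420, minus strand): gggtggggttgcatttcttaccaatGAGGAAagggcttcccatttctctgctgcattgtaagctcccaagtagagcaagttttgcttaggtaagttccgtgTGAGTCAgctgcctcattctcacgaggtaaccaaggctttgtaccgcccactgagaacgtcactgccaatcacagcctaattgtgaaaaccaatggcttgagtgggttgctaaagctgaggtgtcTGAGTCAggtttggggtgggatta
Mrc1 (chr2:14229164-14229413, plus strand): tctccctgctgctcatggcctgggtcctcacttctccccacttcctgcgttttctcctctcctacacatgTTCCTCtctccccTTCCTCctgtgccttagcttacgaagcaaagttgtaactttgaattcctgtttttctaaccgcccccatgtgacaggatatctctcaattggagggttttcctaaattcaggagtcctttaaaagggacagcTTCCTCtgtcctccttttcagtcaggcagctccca
Itgam (chr7:128062390-128062639, plus strand): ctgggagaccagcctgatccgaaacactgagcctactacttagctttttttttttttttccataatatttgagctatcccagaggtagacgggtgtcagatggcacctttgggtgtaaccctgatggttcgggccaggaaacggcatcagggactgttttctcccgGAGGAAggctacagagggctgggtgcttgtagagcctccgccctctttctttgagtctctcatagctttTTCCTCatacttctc

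The PU.1 core occurred 3 times in the Mrc1 window (from 180, 167 and 35 bases before the start), 2 times in that of Itgam (84 and 15) and 1 time in that of Cd68 (225), which also held 2 AP-1 motifs (149 and 24). None of these matches overlapped another. Windows were matched for 7 of the 10 markers. Csf1r and Cd14 were left out by rule, since no window from chromosome 18 was taken, and C1qa had no window. C1qb and C1qc each held 1 PU.1 core, at 30 and 193 bases before the start, and Cx3cr1 and Lyz2 held neither motif. Of all 32851 windows of the same length, 23.3% held the PU.1 core and 6.75% the AP-1 motif, so a match describes the letters only.

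Cd14 is the co-receptor that passes bacterial lipopolysaccharide to TLR4, and its cluster lies on the minus strand of chromosome 18 from 36725067 to 36726736. In WT mice at day 3 it read 5.51 to 6.86 after saline (median 6.26) and 6.50 to 7.87 after doxorubicin (median 6.78). In KO mice the values were 5.73 to 6.93 (median 6.02) and 6.14 to 7.22 (median 6.94). The groups overlapped in both genotypes, and Cd14 passed the threshold in neither (0.67 ± 0.33, adjusted p = 0.317 in WT; 0.73 ± 0.33, adjusted p = 0.19 in KO). Averaged over both genotypes, Cd14 rose 1.63-fold (0.70, 95% confidence interval 0.24 to 1.17, adjusted p = 0.0357). That call was lost in 16 of the 29 alternative settings run, with changes between 0.59 and 0.80 throughout. Among them was leaving out each of KO-Dox3 mice 2, 162, 236 and 248, KO-NaCl3 mice 168, 254 and 292, WT-Dox3 mice 144 and 244, and WT-NaCl3 mice 14, 170 and 190 (adjusted p of up to 0.090).

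Itgam encodes CD11b, the alpha chain of complement receptor 3, which lets phagocytes adhere and take up complement-coated particles; neutrophils and some dendritic cells carry it too. Its cluster spans 128062640 to 128128160 on the plus strand of chromosome 7. In WT-NaCl3 mice Itgam read 7.72, 8.11, 7.86, 7.89 and 7.01, and in WT-Dox3 mice 8.29, 7.80, 8.12, 8.35 and 9.97. In KO-NaCl3 mice the values were 7.42, 7.28, 8.08, 6.96 and 7.80, and in KO-Dox3 mice 8.68, 8.42, 8.17, 8.53 and 8.46. The WT groups overlapped, with mouse 244 far above its 4 companions, whereas the KO groups did not. Itgam rose 1.92-fold in KO mice (0.94 ± 0.30, adjusted p = 0.0410) and by 0.79 ± 0.30 without passing in WT mice (adjusted p = 0.158), where it was 0.42 without mouse 244. Over both genotypes it rose 1.82-fold (0.87, 95% confidence interval 0.43 to 1.30, adjusted p = 0.00376).

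The KO call of Itgam was lost in 9 of 19 alternative settings, among them leaving out each of KO-Dox3 mice 2, 162, 236 and 248 and KO-NaCl3 mice 168, 182 and 254, with an adjusted p of up to 0.138. The call over both genotypes held in all 29 settings run (highest adjusted p 0.0249). Itgb2, the beta chain that pairs with CD11b, changed by 0.47 ± 0.20 over both genotypes, with an adjusted p of 0.143. Neutrophil genes moved in the same comparisons. Of the 10 measured, 9 were higher over both genotypes at day 3, 7 in WT and 2 in KO mice. Their mean signal was 4.70 to 4.95 in WT-NaCl3 and 5.09 to 7.52 in WT-Dox3 mice, and 4.41 to 4.94 in KO-NaCl3 and 5.09 to 5.76 in KO-Dox3 mice. The saline values lay below the brightest background probe set of every array, which read 5.25 or more. S100a8, a subunit of the neutrophil protein calprotectin, changed by 3.20 in WT mice (adjusted p = 0.000157), mouse 244 included. In KO mice its change was 1.40 (adjusted p = 0.0987). The change of Ly6g, a surface antigen that defines mouse neutrophils, was 0.85 in WT (adjusted p = 0.0418) and 0.55 in KO mice (adjusted p = 0.216). The part of neutrophils in the Itgam signal was not tested.

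Cx3cr1 encodes the receptor for fractalkine, a chemokine held on epithelial and endothelial surfaces, and marks the resident macrophages of the lamina propria. Its cluster lies on the minus strand of chromosome 9 from 119901616 to 120068296. All 40 values lay between 5.90 and 6.83, and the means of the 8 groups lay between 6.25 ± 0.22 (SD, n = 5, WT-NaCl3) and 6.45 ± 0.34 (WT-Dox3). The change at day 3 was 0.21 in WT mice (95% confidence interval -0.08 to 0.49, adjusted p = 0.559) and 0.00 in KO mice (-0.29 to 0.29, adjusted p = 0.997). A 2-fold rise lies outside both intervals. Cx3cr1 exceeded the brightest background probe set in 33 of the 40 mice only. Cx3cl1, which encodes fractalkine, changed by -0.37 ± 0.14 over both genotypes with an adjusted p of 0.075.

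Csf1r encodes the receptor for CSF1 and IL-34, on whose signal most tissue macrophages depend for survival. Its cluster runs from 61105572 to 61132149 on the plus strand of chromosome 18. In WT mice at day 3 it read 8.18 to 8.71 after saline and 8.27, 8.17, 8.72, 9.14 and 10.07 after doxorubicin, the highest value again being mouse 244. In KO mice it read 7.96 to 8.58 after saline and 8.10 to 8.56 after doxorubicin. The groups overlapped in both genotypes. Neither change passed (WT 0.41 ± 0.25, adjusted p = 0.478; KO 0.12 ± 0.25, adjusted p = 0.88), and over both genotypes the change was 0.27 (95% confidence interval -0.09 to 0.62, adjusted p = 0.41). Without WT-Dox3 mouse 244 the changes in Csf1r were 0.11 in WT mice and 0.12 over both genotypes. The genes of both its ligands were higher at day 3: Csf1 by 1.03 in WT (adjusted p = 0.000324) and 0.83 in KO mice (adjusted p = 0.00142), and Il34 by 0.38 in each (adjusted p = 0.047 and 0.0309).

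C1qa, C1qb and C1qc encode the 3 chains of C1q, the recognition molecule of the classical complement pathway. Macrophages are a main source of C1q. They are neighbours on the minus strand of chromosome 4, at 136895916 to 136898844, 136880129 to 136886187 and 136889802 to 136893065. C1qb read 8.69, 9.27, 8.49, 9.44 and 7.75 in WT-NaCl3 mice and 9.66, 8.51, 9.04, 9.91 and 10.17 in WT-Dox3 mice. In KO-NaCl3 mice C1qb read 8.45, 7.46, 8.68, 6.95 and 8.77, and in KO-Dox3 mice 9.48, 9.52, 8.56, 9.42 and 9.34. Only mouse 196 of the KO-Dox3 group lay within the range of its saline controls, while the WT groups overlapped broadly.

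None of the 3 chains passed within a genotype at day 3. C1qb changed by 0.73 ± 0.44 in WT (adjusted p = 0.477) and 1.20 ± 0.44 in KO mice (adjusted p = 0.0872), C1qa by 0.57 and 0.50 (adjusted p = 0.21 and 0.229), and C1qc by 0.40 and 0.56 (adjusted p = 0.45 and 0.158), the WT change of C1qc being 0.16 without mouse 244. Over both genotypes all 3 passed. C1qb rose 1.95-fold (0.97 ± 0.31, adjusted p = 0.033), C1qa 1.45-fold (0.53 ± 0.17, adjusted p = 0.0262) and C1qc 1.40-fold (0.48 ± 0.17, adjusted p = 0.0493). These calls were lost in 11, 5 and 20 of 29 alternative settings respectively. Without WT-Dox3 mouse 244 the adjusted p values were 0.0704, 0.0612 and 0.134. C1qa was also lost without KO-Dox3 mouse 2 or 248 or KO-NaCl3 mouse 254 (adjusted p of up to 0.0662). C1qb was also lost without KO-Dox3 mouse 2, 162 or 236, KO-NaCl3 mouse 182 or 254, WT-Dox3 mouse 144 or 232, or WT-NaCl3 mouse 46 or 190 (up to 0.0836). C1qc was also lost without KO-Dox3 mouse 2, 162 or 248, KO-NaCl3 mouse 168, 182, 220 or 254, WT-Dox3 mouse 232, or WT-NaCl3 mouse 14, 46, 170 or 190 (up to 0.117). Of 8 further complement genes measured, 6 were higher over both genotypes, among them C4b, which C1 cleaves after C1q has bound (1.68 ± 0.19, adjusted p = 3.45e-08), C3, the central component (1.76 ± 0.29, adjusted p = 2.71e-05), and C1ra, a protease of the C1 complex (0.90 ± 0.16, adjusted p = 9.37e-05).

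**Figure D2:**
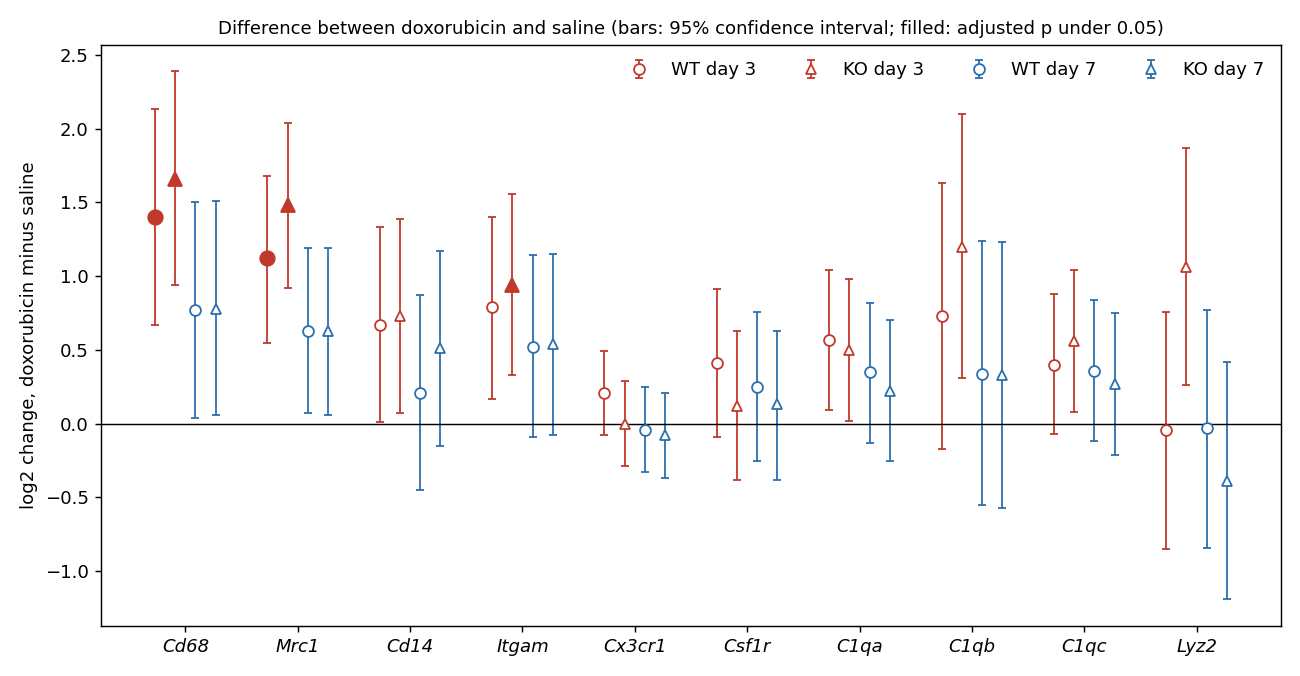
Difference in log2 signal between doxorubicin and saline (vertical axis) for each marker (horizontal axis) in 4 comparisons of 5 with 5 mice; bars are 95% confidence intervals and filled symbols passed an adjusted p of 0.05. The filled symbols are Cd68 and Mrc1 in both genotypes and Itgam in KO mice, all at day 3, with changes from 0.94 to 1.66.

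Lyz2 encodes lysozyme M, the cell-wall hydrolase of macrophages and neutrophils, on the minus strand of chromosome 10 from 117277333 to 117282274. Its near copy Lyz1 encodes lysozyme P of Paneth cells, the antimicrobial secretory cells at the crypt base, and whether probes of one also read the transcript of the other was not tested. To show how alike the copies are upstream, the 150 bases before each start are given, 5′ to 3′ on the gene's strand (RefSeq, GRCm38.p6), with the differing bases in capitals.
Lyz2 (chr10:117282273-117282422, minus strand): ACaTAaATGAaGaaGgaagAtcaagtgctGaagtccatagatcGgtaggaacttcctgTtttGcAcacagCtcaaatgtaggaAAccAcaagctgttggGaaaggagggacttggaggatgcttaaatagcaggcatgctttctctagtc
Lyz1 (chr10:117292869-117293018, minus strand): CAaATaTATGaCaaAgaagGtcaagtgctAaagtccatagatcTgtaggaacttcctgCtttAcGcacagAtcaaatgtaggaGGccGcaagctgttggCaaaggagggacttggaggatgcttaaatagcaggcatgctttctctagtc
Of the 150 positions 129 were the same (86.0%), and 71 of the last 75 before the start were. These bases lie before the transcript, so their likeness does not answer whether the probes read both copies.

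In WT-NaCl3 mice Lyz2 read 17.92, 17.78, 18.03, 17.72 and 17.58, and in WT-Dox3 mice 17.72, 17.75, 17.96, 17.52 and 17.86. In KO-NaCl3 mice it read 17.00, 16.23, 17.86, 14.20 and 17.81, and in KO-Dox3 mice 18.08, 17.58, 17.29, 17.80 and 17.67. The groups overlapped in both genotypes, and the spread of the KO-NaCl3 group came from mice 254 and 182. The change was -0.04 ± 0.40 in WT mice (adjusted p = 0.98) and 1.06 ± 0.40 in KO mice (adjusted p = 0.0924). Without KO-NaCl3 mouse 254 the KO change in Lyz2 was 0.46. Without KO-NaCl3 mouse 220 or 292, the highest of that group, the KO change in Lyz2 was 1.37 or 1.36 and passed (adjusted p = 0.0203 and 0.0233). Mice 254 and 182 were also lowest of their group for Lyz1, at 16.18 and 18.92, against 19.82, 19.87 and 19.91 in the other 3 of the group.

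Within groups, Lyz2 and Lyz1 varied together over the 40 mice: the deviations from the group means correlated at r = 0.88 (rho = 0.86, permutation of mice within groups, adjusted p = 2.42e-05 over 46 relations), and r was 0.75 without the 2 mice farthest from the median. This raw p of 1e-05 is the smallest that 100000 permutations can give. The means of Lyz1 in the 8 groups lay between 18.94 and 19.90, close to the highest signal in the whole table, 19.93. Lyz2 itself had a mean of 17.64 over the 40 arrays, whereas the means of the other markers lay between 6.31 (Cx3cr1) and 8.75 (C1qb). In the mean deviation of KO-NaCl3 mouse 254 over the markers, -0.76, Lyz2 entered with -2.42. The part of Lyz1 and of Paneth cells in the Lyz2 signal was not tested.

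**Figure D3:**
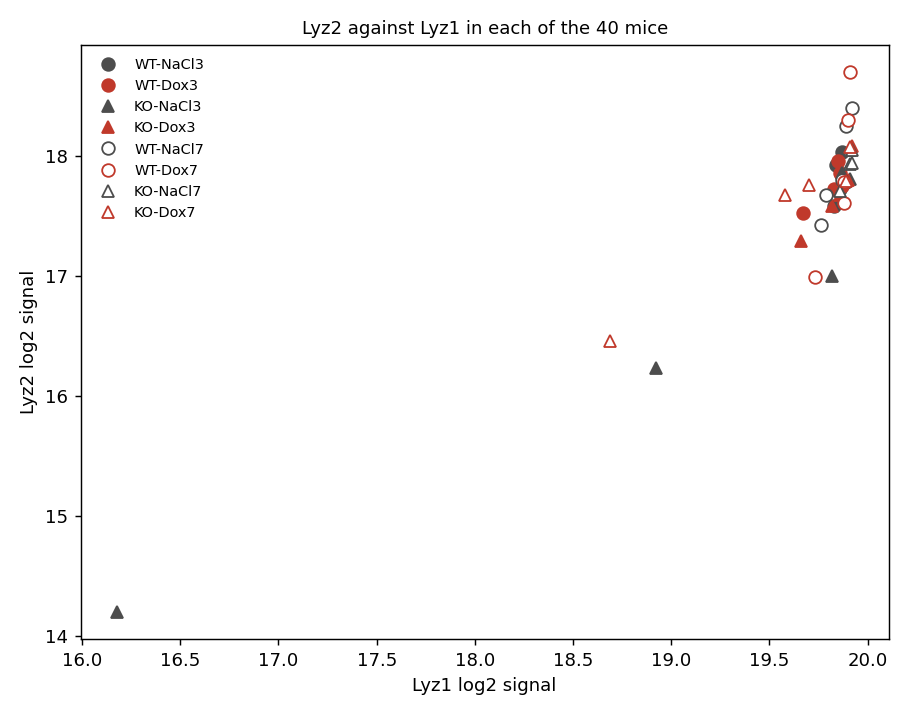
Log2 signal of Lyz2 (vertical axis) against that of Lyz1 (horizontal axis), 1 point per mouse; circles are WT and triangles KO mice, filled symbols day 3 and open symbols day 7, grey saline and red doxorubicin. KO-NaCl3 mouse 254 is lowest on both axes, at 14.20 and 16.18.

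At day 7 none of the 10 markers passed the test, in WT mice, in KO mice or over both. In these comparisons 0.0182%, 0.92% and 2.07% of all clusters were called in either direction (limma), and 2, 2 and 3 of the 10 markers had an unadjusted p under 0.05. The median change of the markers was 0.34 in WT and 0.30 in KO mice, against -0.01 and 0.06 over all clusters. Cd68 read 6.64 to 7.92 in WT-NaCl7 and 7.04 to 8.71 in WT-Dox7 mice, and 7.16 to 8.07 in KO-NaCl7 and 6.75 to 9.10 in KO-Dox7 mice. Mrc1 read 7.41 to 7.87 and 7.33 to 8.65 in WT mice, and 7.59 to 7.89 and 7.07 to 9.27 in KO mice. In each treated group 1 mouse, 102 in WT-Dox7 and 136 in KO-Dox7, gave the lowest value of both genes. The other treated mice lay above every saline mouse of their genotype, except WT-Dox7 mouse 42263 for Cd68, at 7.62. With all mice the groups overlapped for both genes in both genotypes. The lowest mice were set apart after their values were seen, and how many clusters would separate likewise was not counted.

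The Cd68 change over both genotypes at day 7 was 0.78 ± 0.25 (95% confidence interval 0.26 to 1.29, adjusted p = 0.105) and that of Mrc1 0.63 ± 0.20 (0.23 to 1.02, adjusted p = 0.0856). Without KO-Dox7 mouse 136 both passed, at 0.98 (adjusted p = 0.0136) for Cd68 and 0.79 (adjusted p = 0.00821) for Mrc1. Leaving out WT-Dox7 mouse 102 instead gave 0.90 (adjusted p = 0.0373) and 0.73 (adjusted p = 0.0239). Itgam changed by 0.53 ± 0.21 (adjusted p = 0.228), C1qb by 0.34, Cd14 by 0.36, C1qc by 0.31, C1qa by 0.29, Csf1r by 0.19, Cx3cr1 by -0.06 and Lyz2 by -0.21. The difference between the day 7 and day 3 changes passed for 0 of 10 markers (7.35% of all clusters passed in either direction); it was -0.75 ± 0.36 for Cd68 (adjusted p = 0.243) and -0.67 ± 0.28 for Mrc1 (adjusted p = 0.157), and 2 markers had an unadjusted p under 0.05. A fall of these markers between the days was therefore not shown by the test.

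KO and WT mice differed past the threshold in 0 of 10 markers after saline at day 3 and day 7 and after doxorubicin at day 3 and day 7, where 0.0258%, 0.0773%, 0.0106% and 0.00606% of all clusters were called in either direction. The median difference of the markers was -0.33, 0.20, -0.14 and 0.15 in these comparisons, against -0.01, -0.07, -0.04 and -0.02 over all clusters, with 1, 9, 1 and 9 of the 10 markers above 0. Averaged over the 4 pairs of groups, 0 of 10 passed, against 1.95% of all clusters. Before adjustment 1 marker was under 0.05 after saline at day 3, Lyz2 (-1.19 ± 0.40, limma adjusted p = 0.357), and 1 after doxorubicin at day 3, Csf1r (-0.54 ± 0.25, limma adjusted p = 0.577). Without KO-NaCl3 mouse 254 the difference of Lyz2 after saline at day 3 was -0.58, and without WT-Dox3 mouse 244 that of Csf1r was -0.24. The averaged difference of Lyz2 was -0.39 ± 0.20 (adjusted p = 0.234), and -0.24 without mouse 254.

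The doxorubicin change also did not differ between the genotypes for any marker at day 3 or day 7, comparisons in which 0% of all clusters passed and 0 markers had an unadjusted p under 0.05. At day 3 the KO change minus the WT change was 0.26 for Cd68 (95% confidence interval -0.77 to 1.29) and 0.36 for Mrc1 (-0.43 to 1.16), and the largest was that of Lyz2, 1.11 (-0.03 to 2.24, adjusted p = 0.775), which was 0.50 without KO-NaCl3 mouse 254. These intervals are wide and do not show that the genotypes responded alike. Between saline mice of day 7 and day 3, 0 of 10 markers and 0% of all clusters passed; the difference of Lyz2 was 0.71 ± 0.28 (adjusted p = 0.643), and 0.41 without KO-NaCl3 mouse 254.

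Other genes of the same cells were looked up in lists of known roles. Of 19 further macrophage and monocyte genes measured, 9 were higher and 0 lower over both genotypes at day 3, with a median change of 0.41. The smallest adjusted p was that of the sialic acid receptor Siglec1 (1.06 ± 0.10, adjusted p = 1.5e-09), and the largest change was that of Lgmn, a lysosomal protease (2.76 ± 0.29, adjusted p = 7.81e-09). The Fc receptor Fcgr1, known as CD64, changed by 1.31 ± 0.15 (adjusted p = 2.43e-08). Emr1, the array's symbol for the F4/80 antigen Adgre1, and Mertk, a receptor for apoptotic cells, did not pass, at 0.34 ± 0.17 (adjusted p = 0.218) and 0.25 ± 0.20 (adjusted p = 0.525). In WT mice 3 of 19 and in KO mice 4 of 19 rose, the fourth being the haemoglobin receptor Cd163 (0.58 ± 0.14, adjusted p = 0.00522).

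At day 7, when 0 of the 10 markers passed, 7 of these 19 genes were higher over both genotypes and 4 of 19 in KO mice. Mertk, which had not passed at day 3, was among the 7, at 0.87 ± 0.20 (adjusted p = 0.0113). The folate receptor gene Folr2 changed by 0.95 ± 0.14 (adjusted p = 0.000162), the lysosomal protease gene Ctss by 0.73 ± 0.13 (adjusted p = 0.00132) and Gpnmb, a glycoprotein of lipid-laden phagocytes, by 0.99 ± 0.20 (adjusted p = 0.00389). In WT mice 0 of 19 passed at day 7. The difference between the 2 sets of genes was not tested.

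A list of 8 measured genes covered monocytes arriving from the blood and chemokines that attract them. Of these 8, 5 were higher over both genotypes at day 3, with a median change of 1.01. The monocyte-attracting chemokines Ccl7 and Ccl2 changed by 1.86 ± 0.13 (adjusted p = 1.26e-12) and 1.71 ± 0.15 (adjusted p = 3e-10), and the monocyte antigen Ly6c2 by 1.44 ± 0.29 (adjusted p = 0.000399). Chemokines of this kind are also made by fibroblasts and endothelium. At day 7 Ccr2, the receptor for CCL2, was higher by 0.71 ± 0.13 over both genotypes (adjusted p = 0.00175). The list did not move as one between the days. The day 7 change minus the day 3 change passed as higher for 2 of the 8 genes and as lower for 4. Among 10 ligands and partners of the markers, 5 rose at day 3, including Tlr4, the lipopolysaccharide receptor that CD14 serves (0.58 ± 0.11, adjusted p = 0.000226).

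The lists of other cells moved in both directions at day 3, over both genotypes. None of the 3 pan-leukocyte genes passed, with a median change of -0.03. Among dendritic cell genes 3 of 8 were lower, led by Clec9a (-0.63 ± 0.10, adjusted p = 9.67e-06), and 0 of 4 T cell and 0 of 5 B cell genes passed. The group means of the dendritic cell list, 4.76 to 5.17, lay below the brightest background probe set of every array. Of the 6 eosinophil and mast cell genes 2 were higher and 1 lower. Fibroblast genes were higher in 3 of 4 and endothelial genes in 3 of 4, whereas 3 of 4 smooth muscle genes and 2 of 7 enterocyte genes were lower. Myh11, the smooth muscle myosin gene, changed by -1.24 ± 0.22 (adjusted p = 6.28e-05) and Lct, the enterocyte lactase gene, by -1.19 ± 0.23 (adjusted p = 0.000245). Of 3 Paneth cell genes 1, Mmp7, was higher (1.48 ± 0.46, adjusted p = 0.0247) and Lyz1 changed by 0.42 (adjusted p = 0.348). At day 7, 4 of 5 B cell genes were lower in KO mice, and the Paneth cell gene Ang4 fell by 3.35 over both genotypes (adjusted p = 0.002). The part of such shifts between cell types in the marker signals was not tested.

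**Figure D4:**
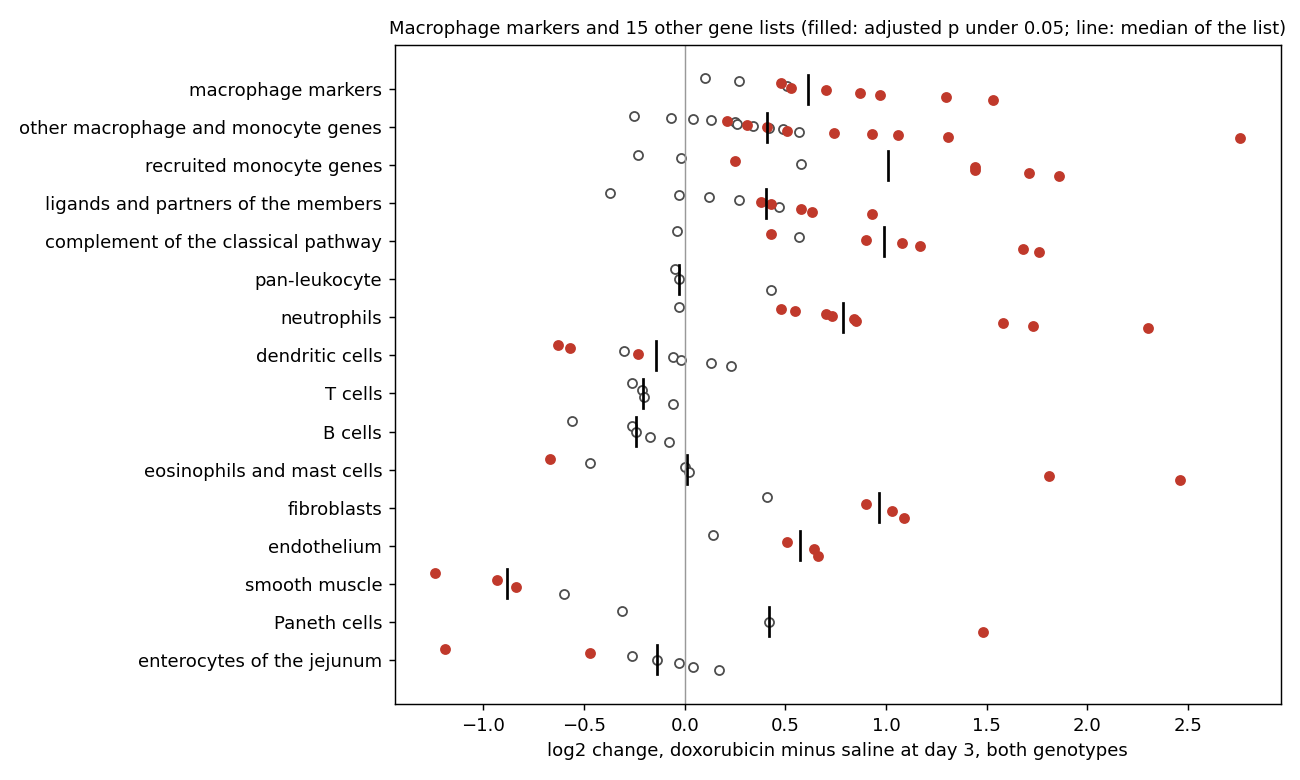
Change in log2 signal between doxorubicin and saline at day 3, averaged over both genotypes (horizontal axis), for the 10 markers and the 103 genes of 15 other lists (vertical axis), 1 point per gene; filled red points passed an adjusted p of 0.05 and the black line is the median of the list. The markers' line lies at 0.62 and that of the pan-leukocyte genes at -0.03.

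The markers also rose and fell together from mouse to mouse within a group. Over the 40 mice, deviations from the group means of C1qa and C1qc correlated at r = 0.88 (rho = 0.89, adjusted p = 2.42e-05 and 3.07e-05, r = 0.86 without the 2 mice farthest from the median). Cd68 and C1qb correlated at r = 0.88 (rho = 0.84, adjusted p = 2.42e-05 and 3.07e-05, r = 0.86 without 2 mice). The weakest pair was Cx3cr1 and Lyz2, with r = 0.31 (rho = 0.19, adjusted p = 0.051 and 0.257, r = 0.04 without 2 mice). All were permutation tests within groups, and 45 of the 46 relations tested passed for r. For rho, Cx3cr1 and Cd14 did not pass either (permutation adjusted p = 0.0937). How many pairs of other genes would pass was not counted, and lists of other cells deviated in some of the same mice. Points of the same array share its RNA sample and its scaling.

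**Figure D5:**
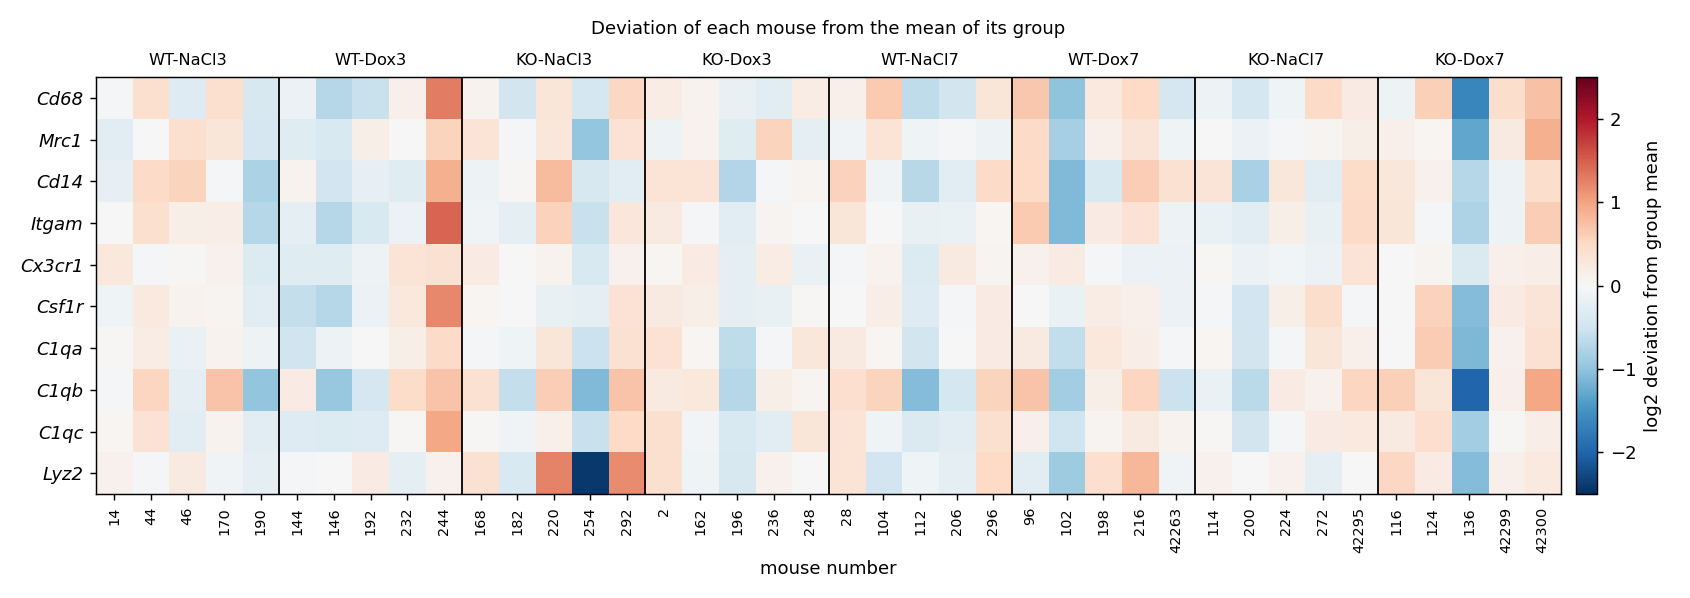
Deviation of each mouse from the mean of its group in log2 units (colour, red above and blue below) for the 10 markers (rows) and 40 mice (columns, with mouse numbers, ordered by group). The columns of KO-Dox7 mouse 136 (mean deviation -1.09) and WT-Dox3 mouse 244 (0.80) stand out over nearly all rows, and KO-NaCl3 mouse 254 for Lyz2.

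Against the mean of the other 9 markers, a marker's signal over the 40 arrays correlated at between 0.50 (Lyz2) and 0.92 (C1qb), with Cx3cr1 at 0.52, Csf1r at 0.74, Cd14 at 0.77, Mrc1 at 0.86, Cd68 at 0.88, C1qa at 0.89, Itgam at 0.90 and C1qc at 0.91. Of 19976 other named genes, the 5 whose signals ran closest to the mean of the 10 markers were Fcer1g (r = 0.938), Ms4a6c (0.934), Fcgr3 (0.932), Tmem173 (0.925) and C1ra (0.920). Fcer1g and Fcgr3 encode the signalling chain and a ligand-binding chain of Fc receptors, and Tmem173 is the array's symbol for STING, a sensor of cytosolic DNA signals. On deviations from the group means, where the effect of treatment is taken out, Ms4a6c (0.936), Tmem173 (0.922), Pld4 (0.922), Fcer1g (0.921) and Fcgr3 (0.908) came first. Fcer1g, Ms4a6c, Fcgr3 and Tmem173 stood in both sets of 5.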

How the data were processed

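Deposited values were log2 signals of 40 arrays, one per mouse. The authors' methods describe limma preprocessing (normexp for the background, then quantiles), while the submitters' processing notes name RMA, the Affymetrix Expression Console and the Transcriptome Analysis Console, without versions; which of these made the deposited log2 table, and the genome build of the annotation, are not given in the sources used here. Groups came from the sample titles. The table holds 72688 probe sets. The 6732 control probe sets were left out and 65956 clusters tested; 0 per-sample columns were left unused. Only the annotation columns of the authors' comparison tables were read; their fold changes and p-values were not used.

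For each symbol the cluster with the highest mean signal was taken, and each marker had only 1. One linear model with 8 group means was fitted (limma 3.58.1, R 4.3.3; lmFit, contrasts.fit, eBayes), with 15 comparisons, Benjamini-Hochberg adjustment over all 65956 clusters and a threshold of 0.05. All p-values called adjusted without another test named are from this fit. On data simulated for WT mice at day 3 over 65956 clusters, 84 of 100 changes planted at log2 1 and 98 of 100 at log2 2 were recovered, with 16 calls among the unchanged. The changes were planted in randomly drawn clusters, with normal noise that was independent between clusters. The markers varied together from mouse to mouse, and their SE in that comparison reached 0.44 (C1qb). Recovery rates for the markers themselves were not simulated. In list paragraphs, up to 4 genes with the smallest adjusted p among those that passed could be named for each list and comparison; other genes named there (Itgb2, Cx3cl1, Mertk, Ly6g, Emr1) were added after their values were seen. Of 110 listed genes 103 were matched, 3 of them through older symbols. The markers and lists were chosen with earlier results of these data known. Correlations used 100000 permutations of mice within groups. Figures were drawn with matplotlib. The precision is set by the 5 mice of a group.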

Additional observations from a re-analysis of the deposited data

Results flagged for a closer look

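In groups of 5 mice, a value was picked out where its gap to the nearest other mouse took up more than 0.71 of the range of the group. Of 80 combinations of marker and group 7 met this, and chance alone picks about 1 in 20. WT-Dox3 mouse 244 was picked out as the highest of its group for Itgam (9.97, next value 8.35) and for C1qc (8.33, next value 7.39). KO-Dox7 mouse 136 was the lowest for Lyz2 (16.46, next value 17.67) and for C1qb (6.98, next value 9.10). KO-Dox3 mouse 196 was the lowest of its group for C1qb, at 8.56 with the next value at 9.34. WT-Dox7 mouse 102 was the lowest for C1qc, at 6.52 with the next at 7.09. WT-NaCl7 mouse 104 was the highest for Mrc1, at 7.87 with the next at 7.51. Of 30 tests of whether a change differed between genotypes or between days, 0 passed.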

How the results depend on the processing

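Cd68 and Mrc1 in KO mice at day 3, and Cd68, Mrc1 and Itgam over both genotypes at day 3, kept their direction and passed under each alternative run. The count of markers that rose in WT mice at day 3, 2 in the main fit, was 1 when only the compared groups were fitted, 0 in the methods' analysis of variance, and 0 to 2 when 1 mouse was left out (0 without WT-Dox3 mouse 244). In KO mice at day 3 it was 2 to 4 when 1 mouse was left out, against 3. Over both genotypes at day 3, where 7 rose, it was 4 with array weights, 4 after a second quantile normalization and 3 to 7 when 1 mouse was left out (3 without KO-Dox3 mouse 2, KO-NaCl3 mouse 254 or WT-Dox3 mouse 244, and 4 without KO-Dox3 mouse 162 or 248 or WT-NaCl3 mouse 190). Over both genotypes at day 7, where 0 rose, it was 3 with array weights and 0 to 2 when 1 mouse was left out (2 without KO-Dox7 mouse 136 or WT-Dox7 mouse 102). Leaving out KO-Dox7 mouse 136 and WT-Dox3 mouse 244 together, an alternative chosen after seeing the data, gave 2 in WT mice at day 3, 5 in KO mice at day 3, 5 over both genotypes at day 3 (Cd14 and C1qc were lost), 1 in KO mice at day 7 and 2 over both genotypes at day 7. In it Cd68 and Mrc1 passed in WT mice at day 3 (1.08 and 0.98, adjusted p = 0.0237 and 0.0132). Neither of these 2 mice is in a KO day 3 group, and the changes of C1qb and C1qc there stayed at 1.20 and 0.56. Their limma adjusted p went from 0.0872 and 0.158 to 0.0327 and 0.0455 through the shared spread and the adjustment alone. Some of these alternatives also had fewer mice or fewer shared groups, and the cause of the other moves was not tested.

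Settings were tabulated for the 69 changes printed for single markers. Of these, those close to 0 turned sign in some settings, with no p passing. Cx3cr1 in KO mice at day 3 was -0.05 with array weights and 0.00 after a second quantile normalization, and ranged from -0.09 to 0.06 when 1 mouse was left out. In KO mice at day 7 it ranged from -0.12 to 0.01, and was 0.01 without mice 136 and 244, and in WT mice at day 7 it ranged from -0.13 to 0.02. Lyz2 in WT mice was 0.09 at day 7 with array weights and ranged from -0.24 to 0.19, and at day 3 it ranged from -0.10 to 0.02. Csf1r in KO mice at day 7 ranged from -0.02 to 0.40. Over all 150 marker changes and 3950 combinations with a setting, 229 turned sign, and 0 of these passed. The largest value reached with the turned sign was 0.49 in size. No paired analysis was possible because the mouse numbers are unique to each group.

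A second quantile normalization turned the split of all clusters in WT mice at day 3 from 1713 higher and 1402 lower to 1281 and 1790. Centring each array on its median changed it from 210 and 397 to 111 and 605 in KO mice at day 7, from 609 and 753 to 422 and 883 over both genotypes at day 7, and from 391 and 897 to 2045 and 267 for KO against WT averaged (66 and 82 after quantile normalization). Smaller splits moved as well. Centring gave 36 and 1 in place of 19 and 32 for KO against WT after saline at day 7 (14 and 8 after quantile normalization), 9 and 4 in place of 9 and 8 at day 3, and 5 and 1 in place of 5 and 2 after doxorubicin at day 3, and quantile normalization gave 9 and 12 in place of 7 and 5 in WT mice at day 7 (6 and 7 after centring). Centring moved the median difference of all clusters between KO and WT saline mice at day 7 from -0.07 to 0.04, and no other comparison moved by more than 0.1 under either scaling. Arrays give no read depth, and the signal over background limits Cx3cr1 and Cd14. It also limits the neutrophil list, with means of 4.74 to 4.88 in the saline groups. The dendritic cell list had means of 4.76 to 5.17 in the 8 groups. The brightest background probe set read 5.25 or more in every array.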
